A study of Mus musculus with 4 samples.

Results

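Intronic regions bound by the Glucocorticoid Receptor (GR) but free of an E2A peak were examined in livers of wild-type mice. They were chosen on the peak calls themselves. Peaks of the 2 GR replicates that shared at least 1 bp were merged, as were those of the 2 E2A replicates, and a merged GR region was kept if it was under 1500 bp wide, shared no base with an E2A region, had no peak annotated to a promoter and began with a peak annotated to an intron. This rule kept 1393 of 8795 merged GR regions (intronic GR-only regions). Their width, their intronic position and the absence of E2A are therefore properties of the choice and are described without a test.

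All 4 libraries were ChIP-Seq of liver from male C57BL/6 mice labelled wild-type for E47 (E47+/+), on chow, untreated and collected at ZT 10, that is 10 h after lights on. Per the methods the animals were 10 to 16 weeks old. A GR antibody from Proteintech and an E2A antibody from Santa Cruz (sc-349) were each used on 2 biological replicates. According to the study both antibodies were applied to chromatin of shared livers, but the labels do not say which GR and E2A libraries came from one animal. The labels are not free of conflict. The free-text descriptions of both E2A samples name a GR ChIP, and that of E2A replicate 2 names the E47-/- genotype, whereas the titles and the antibody and genotype fields give E2A and wild type and were used here. A supplementary legend of the study describes dexamethasone-treated livers, while every label says untreated. Whole liver was used, so a peak cannot be assigned to one cell type.

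GR is a nuclear receptor that enters the nucleus when it binds a glucocorticoid hormone, and it classically binds DNA as a dimer at the glucocorticoid response element (GRE). A GRE consists of the half-site AGAACA and its reverse complement TGTTCT separated by 3 bases. In hepatocytes GR controls genes of glucose, amino acid and lipid metabolism, often from enhancers, and many enhancers lie in introns. E2A is the product of the Tcf3 gene, whose splice forms E12 and E47 are basic helix-loop-helix factors that bind the E-Box CANNTG.

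The sequences below show what GR-only introns can contain. Capitals mark the GRE, and all are plus-strand GRCm38 (mm10) sequence. The first 3 belong to the regions that were called in both GR replicates and held a GRE with 0 mismatches in its 12 fixed bases within the central 200 bp. They lie in intron 1 of Fkbp5 (chr17:28442379-28442473), in intron 1 of Zhx3 (chr2:160805270-160805364) and in intron 2 of Zbtb20, where the nearest annotated start is that of BC002163 (chr16:42999113-42999207).
Fkbp5: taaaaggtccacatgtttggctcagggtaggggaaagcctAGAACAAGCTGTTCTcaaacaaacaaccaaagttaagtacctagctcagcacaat
Zhx3: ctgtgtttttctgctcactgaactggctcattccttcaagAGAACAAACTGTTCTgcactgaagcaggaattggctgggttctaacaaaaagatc
BC002163: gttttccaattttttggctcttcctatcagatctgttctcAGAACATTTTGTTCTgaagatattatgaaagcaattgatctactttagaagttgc

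A further 4 regions with 1 mismatch were selected after their values were seen, because they lie near metabolic or signalling genes or near a gene with many such regions. In the substitutions the GRE base comes first and positions are counted from 1 at the first base in capitals. Prodh encodes proline dehydrogenase (chr16:18083481-18083575, A1C), Fads2 a fatty acid desaturase (chr19:10096673-10096767, A6T), Il6ra the interleukin-6 receptor (chr3:89905230-89905324, A3C) and Tns1 the focal adhesion protein tensin 1 (chr1:74014763-74014857, A3G). The regions of Prodh, Fads2 and Tns1 were called in both replicates and that of Il6ra in replicate 1. The sites of Fads2 and Il6ra extend or lie beyond the central 200 bp of their regions, where the best match had 2 mismatches.
Prodh: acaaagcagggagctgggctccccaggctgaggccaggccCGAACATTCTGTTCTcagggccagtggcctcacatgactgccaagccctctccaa
Fads2: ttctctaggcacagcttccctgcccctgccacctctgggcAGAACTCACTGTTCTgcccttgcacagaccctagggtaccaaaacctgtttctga
Il6ra: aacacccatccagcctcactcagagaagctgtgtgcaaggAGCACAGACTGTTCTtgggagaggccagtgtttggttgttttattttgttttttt
Tns1: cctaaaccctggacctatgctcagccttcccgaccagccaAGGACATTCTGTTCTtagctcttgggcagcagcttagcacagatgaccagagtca

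Other intronic GR-only regions had no GRE in the centre but a STAT5 motif, TTCNNNGAA, which is the sequence bound by the growth hormone-activated factor STAT5. The 4 shown were called in GR replicate 2 alone and were picked after their values were seen, near Igf1 (insulin-like growth factor 1, chr10:87862943-87863031), Il1r1 (interleukin-1 receptor, chr1:40236973-40237061), Cpt1a (carnitine palmitoyltransferase 1A, chr19:3353789-3353877) and Zbtb16 (a zinc finger repressor, chr9:48798237-48798325). Capitals mark the motif.
Igf1: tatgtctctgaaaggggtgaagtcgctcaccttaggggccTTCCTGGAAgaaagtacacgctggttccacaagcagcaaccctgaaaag
Il1r1: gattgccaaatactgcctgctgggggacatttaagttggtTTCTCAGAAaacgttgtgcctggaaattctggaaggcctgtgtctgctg
Cpt1a: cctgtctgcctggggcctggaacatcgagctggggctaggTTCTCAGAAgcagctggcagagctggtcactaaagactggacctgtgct
Zbtb16: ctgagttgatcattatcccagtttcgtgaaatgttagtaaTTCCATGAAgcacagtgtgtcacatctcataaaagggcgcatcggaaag

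Peak numbers differed between libraries. GR replicate 1 had 4291 peaks and GR replicate 2 had 7334, while E2A replicate 1 had 4028 and E2A replicate 2 had 1892. Neither heights, read counts nor q-values are part of the deposited lists. How many reads support a peak is thus unknown, and an absent E2A peak means that none was called. Per the methods, libraries had been downsampled to 18 mio (GR) and 22 mio (E2A) read pairs before calling. The number of intronic GR-only regions rested on each library. Without GR replicate 1 it was 889, without GR replicate 2 it was 881, without E2A replicate 1 it was 1728 and without E2A replicate 2 it was 1488.

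Most intronic GR-only regions were seen in a single replicate. Replicate 1 alone called 514 (36.9%), replicate 2 alone 540 (38.8%) and both replicates 339 (24.3%; 95% Wilson interval, 22.2 to 26.7%). Among all merged GR regions the share called in both was 31.1%, among intronic regions shared with E2A it was 45.7% (269 of 589) and among intergenic GR-only regions 32.1% (372 of 1158). Peaks of replicate 1 fell into intronic GR-only regions more often (854 of 4291, 19.9%) than peaks of replicate 2 (879 of 7334, 12.0%). In the 338 regions with 1 peak in each replicate, the 2 peak centres were a median of 39.5 bp apart. The bases covered by both peaks made up a median of 72.9% of their union.

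Regions were narrow, with a median width of 348 bp (quartiles 290 and 445 bp) and a minimum of 250 bp. Those called in both replicates had a median of 447 bp, those of replicate 1 alone 318 bp and those of replicate 2 alone 324 bp, and merging 2 peaks by itself widens a region. Intronic regions shared with E2A had a median of 420 bp. At the upper limit the widest members were 1473 bp (near Mir101b), 1436 bp (Acsl1) and 1401 bp (Gm10319), and 8 intronic regions without E2A were left out, the narrowest being 1531 bp (Gsta3), 1573 bp (Slc6a13) and 1629 bp (Hpx). At the limit set by E2A, the closest members were separated from an E2A region by 16 bp (Myom1), 53 bp (Myo1e) and 68 bp (Igfbp5), and the smallest overlaps among shared intronic regions were 11 bp (also Myom1), 21 bp (Mbd5) and 38 bp (Sap130), against a median overlap of 311 bp.

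The intron label was checked against the GENCODE M21 basic annotation. The centre of 1238 of 1393 regions (88.9%) lay in an intron of the longest protein-coding transcript of a gene. Only 37 regions (2.66%) shared a base with an exon, while 122 (8.76%) lay within 1000 bp of an annotated transcript start. By the deposited annotation 626 regions (44.9%; 42.3 to 47.6%) were in intron 1, 256 (18.4%) in intron 2, 135 (9.69%) in intron 3 and 376 (27.0%) in a later one. Among the 1238 regions placed by GENCODE, 532 (43.0%; 40.2 to 45.7%) were in intron 1, which on average held 31.7% of the intron length of the same transcripts. Of the intronic regions shared with E2A, 276 of 589 (46.9%; 42.9 to 50.9%) were in intron 1.

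The distance to the nearest transcription start site (TSS) ranged from 502 bp to 618346 bp with a median of 10709 bp. It was under 5000 bp for 445 regions (31.9%) and 50000 bp or more for 197 (14.1%). The median was 12441 bp for intronic regions shared with E2A and 23362 bp for intergenic GR-only regions. The intron belonged to the nearest gene in 1097 cases (78.8%), to another gene in 246 and to a transcript with no gene ID in 50, so a gene named for a region is only the one whose start lies nearest.

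Although the members were chosen to lack E2A, many lay near it. The nearest E2A region was within 1000 bp of 92 members (6.60%), within 10000 bp of 470 (33.7%) and within 50000 bp of 855 (61.4%). The median distance was 24473 bp, against 31503 bp for intergenic GR-only regions. Of the 1006 nearest genes, 378 (37.6%) also had a GR region shared with E2A, and 186 (18.5%) had one in an intron. Some genes thus carried both kinds of region. The share of all genes nearest to a GR region that had a shared one is not given here, so these shares have no background.

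GRE matches were counted in the central 200 bp with at most 2 mismatches in the 12 fixed bases. This measure was not used in choosing the regions. A GRE was found in 138 of 1393 intronic GR-only regions (9.91%; 8.45 to 11.6%), in 35 of 2564 windows of the same length that began 500 bp outside their edges and met no peak (1.37%; 0.983 to 1.89%) and in 4.53% of all merged GR regions under the width limit. In intronic regions shared with E2A it was found in 31 of 589 (5.26%; 3.73 to 7.37%). The odds of a GRE were 1.98-fold higher without E2A (95% interval 1.31 to 3.06, adjusted p = 0.00622 over 33 motif comparisons by Fisher's exact test, two-sided). Whether this difference passed the threshold depended on the libraries and on the window. It passed without GR replicate 2 (odds ratio 1.87, exact test, adjusted p = 0.0234) and without E2A replicate 2 (2.11, 0.00596). It did not pass in the next 4 settings, and without E2A replicate 1 only 254 intronic regions shared with E2A remained. By the same exact test the odds ratio was 1.65 without GR replicate 1 (adjusted p = 0.184), 2.02 without E2A replicate 1 (0.118), 1.44 in the central 400 bp (0.134) and 1.32 over whole regions (0.218). In regions called in both GR replicates it was 2.46, from 61 of 339 against 22 of 269 (18% and 8.18%, exact test, adjusted p = 0.00838). Regions are not independent animals, and each p describes these lists.

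Whether a GR-only region lay in an intron or outside genes made no detectable difference to its GRE share. Intergenic GR-only regions held a GRE in 123 of 1158 cases (10.6%; 8.98 to 12.5%), an odds ratio of 0.925 for intronic regions (0.710 to 1.21, Fisher's exact test, adjusted p = 0.752). Promoter GR-only regions held one in 31 of 3063 (1.01%; 0.714 to 1.43%), an odds ratio of 10.8 (7.19 to 16.5, Fisher's exact test, adjusted p = 9.7e-42). Promoter windows were much richer in G and C (66.6% against 48.7%), and within bins of 5% GC content the Mantel-Haenszel odds ratio against promoters was 2.39, also past the threshold.

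**Figure D1:**
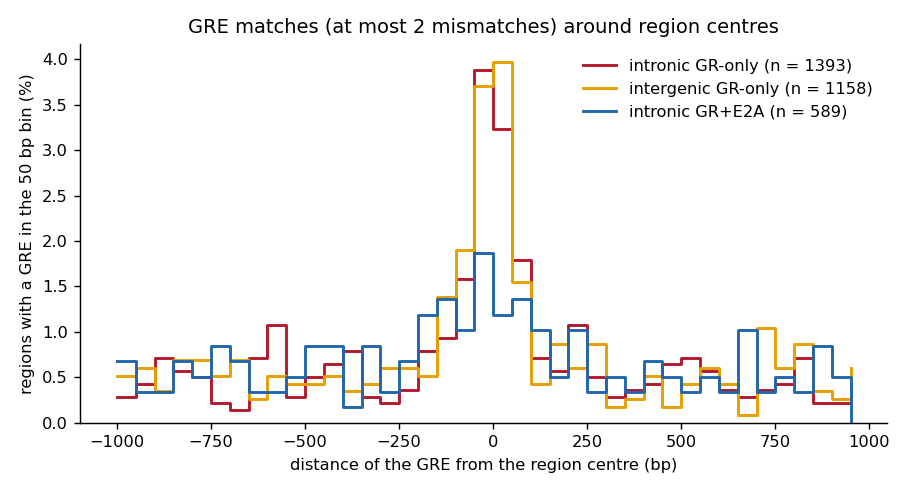
Share of regions (y axis, %) with a GRE of at most 2 mismatches in each 50 bp bin of distance from the region centre (x axis, bp), for intronic GR-only (red), intergenic GR-only (orange) and intronic GR+E2A regions (blue). The 2 bins beside the centre hold a GRE in 3.88% and 3.23% of intronic GR-only regions and in 1.87% and 1.19% of intronic GR+E2A regions.

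The GRE sat near the centre of the peak. In the 50 bp on either side of the centre it was found in 3.88% and 3.23% of intronic GR-only regions, and the profile of GRE matches by distance shows no bin above 1.08% beyond 100 bp. Anywhere in the region, 45 members held a GRE with at most 1 mismatch, a median of 46.5 bp from the centre, and 37 of the 45 lay within 100 bp of it. Of these 45, 25 were called in both replicates. By mismatches in the central window, 5 regions had 0, 29 had 1, 104 had 2 and 271 had 3, the last above the limit set here. The 5 perfect sites include those of Fkbp5, Zhx3 and BC002163 shown above, 1 near Frs2 in replicate 2 and 1 near Tshz1 in replicate 1.

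Mismatches were unevenly placed within the half-site. Among the 276 half-sites of the 138 GREs, 22.1% differed from AGAACA at position 1 and 30.8% at position 3. At position 2 the share was 9.06%, at position 4 it was 8.33%, at position 5 it was 4.35% and at position 6 it was 11.2%. The 70 half-sites of the 35 flanking matches had another pattern, with 1.43% at position 1, 14.3% at position 3 and 24.3% at position 5. A perfect half-site on at least one side was present in 77 of 138 GREs (55.8%) and in 20 of 35 flanking matches (57.1%). When positions 1 and 3 were left free and 1 mismatch was allowed in the other 8 bases, a choice made after this pattern was seen, 30.2% of intronic GR-only regions, 19.2% of intronic regions shared with E2A and 31.2% of intergenic GR-only regions held a match. The free positions were taken from the matches of the members themselves, so these shares are a description.

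The GRE share varied with the distance to E2A. Among the 92 members within 1000 bp of an E2A region 2 held a GRE (2.17%; 0.598 to 7.58%). It was 33 of 378 (8.73%) between 1000 and 10000 bp, 38 of 385 (9.87%) between 10000 and 50000 bp and 65 of 538 (12.1%; 9.59 to 15.1%) farther away. The E-Box share in the same bins was 60.9%, 72.8%, 73.5% and 68.4%. Near a TSS the GRE was also less common, with 29 of 445 (6.52%; 4.58 to 9.20%) under 5000 bp, 29 of 235 (12.3%) from there to 10000 bp, 60 of 516 (11.6%) up to 50000 bp and 20 of 197 (10.2%) beyond. These bins are descriptions, and their order was not tested.

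Of the 16 motifs counted, 3 differed between intronic regions without and with E2A. Besides the GRE, the half-site AGAACA was more common without E2A, in 404 of 1393 regions (29.0%; 26.7 to 31.4%) against 129 of 589 (21.9%; 18.7 to 25.4%; odds ratio 1.46, adjusted p = 0.00883, Fisher's exact test). A GRE often contains this half-site, so these counts are not independent of each other. The motif TTGCNNAA of C/EBP, a family of factors that define hepatocyte enhancers, was less common without E2A, in 216 regions (15.5%; 13.7 to 17.5%) against 125 (21.2%; 18.1 to 24.7%; odds ratio 0.681, exact test, adjusted p = 0.0178). Without GR replicate 1 none of these 3 passed by the exact test, with an odds ratio of 1.39 for the half-site (adjusted p = 0.184) and 0.720 for C/EBP (0.235). The odds ratio of C/EBP was 0.717 without GR replicate 2 (exact test, adjusted p = 0.199), 0.775 without E2A replicate 2 (0.297) and 0.847 in regions called in both replicates (0.905). Within replicate classes its Mantel-Haenszel odds ratio was 0.715, which did not pass the threshold. Over whole regions the half-site was at 42.7% and 42.1% (odds ratio 1.03), whereas C/EBP was at 25.8% and 37.4% (0.585, exact test, adjusted p = 7.8e-06). Whole regions were wider with E2A (median 420 against 348 bp) and so offered more sequence to search.

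In the central 200 bp the E-Box, the sequence that E2A binds, was not detectably rarer in the regions without E2A. CANNTG occurred in 982 of 1393 intronic GR-only regions (70.5%; 68.0 to 72.8%), in 392 of 589 shared regions (66.6%; 62.6 to 70.2%) and in 1691 of 2564 flanking windows (66.0%; 64.1 to 67.8%). The flanks of shared regions held CANNTG in 726 of 1091 windows (66.5%), close to the share at their centres. The odds ratio against shared regions was 1.20 (0.971 to 1.48, Fisher's exact test, adjusted p = 0.323). None of the 5 specific E-Boxes passed either. CAGGTG was in 15.3% against 12.1% (exact test, adjusted p = 0.281), CAGCTG in 13.7% against 13.4%, CATCTG in 14.6% against 13.2%, CACGTG in 4.74% against 5.43% and CATATG in 2.73% against 2.21%. Over whole regions, which were wider with E2A, CANNTG was at 87.7% without and 89.5% with E2A (odds ratio 0.841, exact test, adjusted p = 0.531). All 5 specific E-Boxes were also less common without E2A there, none past the threshold. A hexamer with only 4 fixed bases occurs in most 200 bp windows, and its presence says nothing about occupancy.

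**Figure D2:**
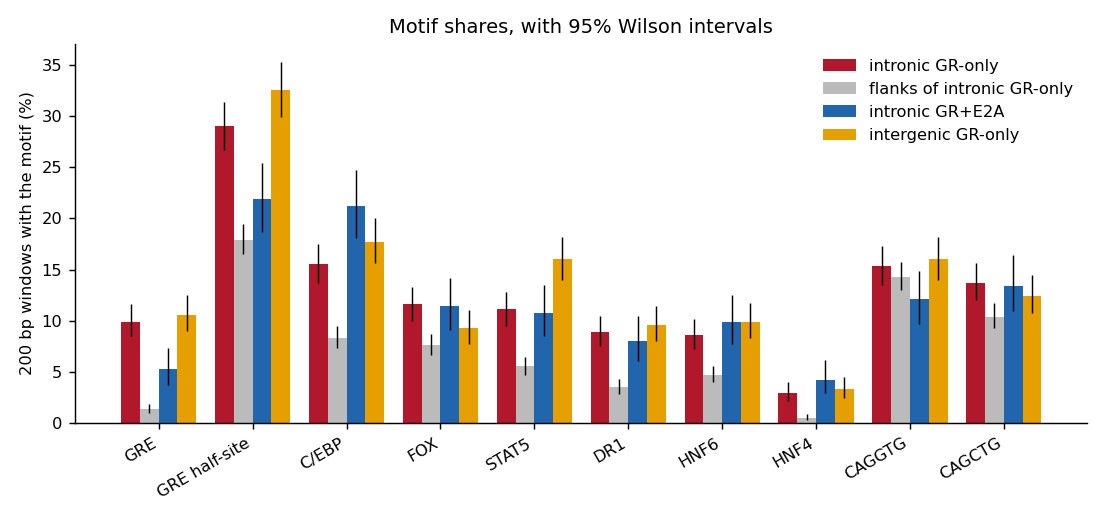
Share of 200 bp windows (y axis, %) that hold each motif (x axis) at the centre of intronic GR-only regions (red), in their flanks (grey) and at the centre of intronic GR+E2A (blue) and intergenic GR-only regions (orange), with 95% Wilson intervals as error bars. The GRE is at 9.91% in intronic GR-only regions, 1.37% in their flanks, 5.26% with E2A and 10.6% between genes.

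For other hepatocyte motifs no difference between the intronic classes passed the test in the central 200 bp. TGTTTAC or TGTTTAT, bound by FOX factors such as FOXA2, occurred in 11.6% without and 11.4% with E2A (odds ratio 1.02, 0.746 to 1.40). HNF6 motifs, of the kind ATTGATC, occurred in 8.61% and 9.85% (0.863, 0.615 to 1.22), and the HNF4 sites CAAAGTCCA or CAAAGTTCA in 2.94% and 4.24% (0.684, 0.402 to 1.19). The DR1 element of nuclear receptors, 2 copies of AGGTCA with 1 base between and up to 2 mismatches, occurred in 8.90% and 7.98% (1.13, 0.786 to 1.64). Over whole regions, which were wider with E2A, FOX motifs stood at 19% without and 24.6% with E2A (odds ratio 0.719, exact test, adjusted p = 0.0414), HNF6 motifs at 15.2% and 20% (0.717, adjusted p = 0.0472) and the cyclic AMP response element TGACGTCA at 0.431% and 1.70% (0.250, adjusted p = 0.0472). The bar chart of motif shares shows each of these above the flanks, which were at 7.64% for FOX, 4.72% for HNF6, 0.507% for HNF4, 3.47% for DR1 and 8.31% for C/EBP. At least 1 of these 5 hepatocyte motifs was in 39.6% of the members, and 581 (41.7%; 39.1 to 44.3%) had none of them and neither a GRE nor a half-site. Windows and flanks also differed in composition, with 48.7% and 46.0% GC and with 13.4% and 23.5% repeat-masked bases.

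Against intergenic GR-only regions, 1 of 16 motifs differed. The STAT5 motif TTCNNNGAA was less common in introns, in 154 of 1393 regions (11.1%; 9.51 to 12.8%) against 185 of 1158 (16%; 14 to 18.2%), an odds ratio of 0.654 (0.516 to 0.828, Fisher's exact test, adjusted p = 0.00565). By the exact test this did not pass without GR replicate 2, at 7.04% against 10.0% (odds ratio 0.679, adjusted p = 0.233). Nor did it without E2A replicate 1 (0.747, exact test, adjusted p = 0.0579) or in regions called in both replicates, at 7.37% against 12.6% (0.551, 0.162). Of 12 alternatives, 9 kept the main outcome. Within replicate classes, a check chosen after seeing the data, the Mantel-Haenszel odds ratio was 0.680 and passed the threshold.

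The STAT5 motif followed the replicate. It occurred in 102 of 540 intronic GR-only regions of replicate 2 alone (18.9%; 15.8 to 22.4%) but in 27 of 514 of replicate 1 alone (5.25%; 3.63 to 7.53%) and in 25 of 339 called in both (7.37%; 5.04 to 10.7%), with 5.54% (4.72 to 6.49%) in the flanks. Intergenic GR-only regions had a like split, with 25.6% in replicate 2 alone and 5.43% in replicate 1 alone. In intronic regions shared with E2A the shares were 13.7% (9.16 to 20.1%) and 7.78% (4.61 to 12.9%), and in promoter GR-only regions 3.03% (2.40 to 3.81%) and 3.77% (1.74 to 7.99%), with intervals that overlap in both classes. The GRE went with agreement between replicates, at 8.17% in replicate 1 alone, 6.48% in replicate 2 alone and 18% (61 of 339; 14.3 to 22.4%) in both. CAGGTG was in 17.7% of regions of replicate 1 alone, 11.7% of replicate 2 alone and 17.4% of both, and C/EBP in 14.2%, 14.6% and 18.9%. The plot of motifs by replicate shows these intervals. GR replicate 2 also had 94.8% of all promoter GR-only regions against 25.6% for replicate 1, so the libraries differed in more than STAT5, and which of their differences belong to the animals and which to library or peak calling cannot be told apart with 1 library each.

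**Figure D3:**
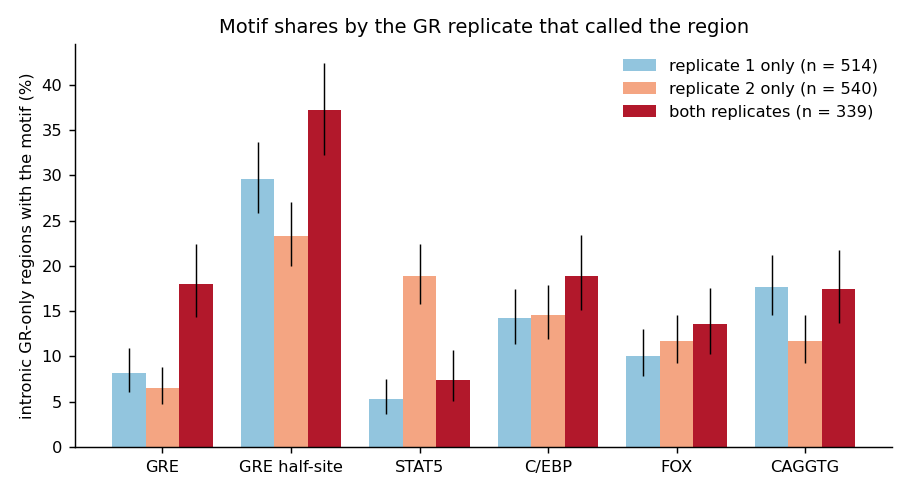
Share of intronic GR-only regions (y axis, %) with each motif (x axis), for regions called in GR replicate 1 only (light blue, n = 514), in replicate 2 only (light red, n = 540) and in both (dark red, n = 339), with 95% Wilson intervals as error bars. The STAT5 motif stands at 18.9% in replicate 2 only against 5.25% and 7.37%, and the GRE at 18% in both against 8.17% and 6.48%.

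Members with a GRE were compared with the others for further motifs, without a test. C/EBP occurred in 26 of 138 regions with a GRE (18.8%; 13.2 to 26.2%) and in 15.1% of the 1255 without (13.3 to 17.2%). FOX motifs were in 12.3% and 11.5%, DR1 in 7.97% and 9.0%, and the E-Box in 68.8% and 70.7%. Lower shares were found with a GRE for STAT5, in 8 of 138 (5.80%; 2.97 to 11%) against 11.6% (9.98 to 13.5%), for AP-1 (TGANTCA; 2.90%, 1.13 to 7.22%, against 6.22%, 5.01 to 7.69%) and for CACGTG (2.17%, 0.742 to 6.20%, against 5.02%, 3.94 to 6.37%). All these intervals overlap.

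The 1393 regions were nearest to 1006 genes, which is 17.8% of the 5655 genes nearest to any merged GR region. A single region was assigned to 738 genes, 2 regions to 187, 3 to 58 and 4 or more to 23. A GR region at the promoter was also present for 503 of the 1006 genes, and 360 (35.8%) had no GR region other than intronic GR-only ones. Members also clustered, with 319 (22.9%) within 5000 bp of another. The genes were long, with a median of 37652 bp against 20565 bp for all genes nearest to a GR region, and a long gene offers more intron to be chosen from.

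Zbtb16, which encodes the transcriptional repressor PLZF and is a classic glucocorticoid-induced gene, had the most regions. All 10 lay in introns 2 and 3, from 37.5 kb to 106 kb downstream of the TSS. Both replicates called 4 of them, replicate 1 alone another 4 and replicate 2 alone 2. At chr9:48729494-48729933, for example, the peak ran from 48729494 to 48729933 in replicate 1 and from 48729497 to 48729922 in replicate 2, and at chr9:48740070-48740476 the peaks were 407 bp and 372 bp wide. Only 1 of the 10 had a GRE, at 48.2 kb (chr9:48787353-48787730, replicate 1, 2 mismatches). Of the 3 intronic regions shared with E2A, those at 90.3 and 98.0 kb lay among them and that at 112 kb beyond. With a shared promoter region the total was 14, and the closest GR-only region was 971 bp from an E2A region.

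Fkbp5, a chaperone that dampens GR signalling and is itself induced by glucocorticoids, had 4 regions. The one with the perfect GRE (chr17:28442267-28442689) was 423 bp wide in replicate 1 and 255 bp in replicate 2, and an E2A region lay 3350 bp away. A second, chr17:28512565-28513212, was called in both replicates at 648 bp and 361 bp, and its best GRE match had 2 mismatches but lay outside the central window. The other two, at 28428850 and 28460428, were each 323 bp wide and called in replicate 2 only.

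Genes of fatty acid oxidation showed how the replicates divided. Cpt1a, the rate-limiting enzyme of mitochondrial fatty acid import, had 4 regions, of which the 3 at 0.643, 1.58 and 3.02 kb from the TSS were called in both replicates. Their widths were 406, 395 and 485 bp in replicate 1 and 601, 896 and 610 bp in replicate 2. The fourth, at 30.4 kb in intron 3, was 398 bp wide and called in replicate 2 only. None of these 4 regions had a GRE in the central window. The 3 regions of Acsl1, an acyl-CoA synthetase, and the 1 of Cpt2, a second carnitine palmitoyltransferase, were of replicate 2 only.

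**Figure D4:**
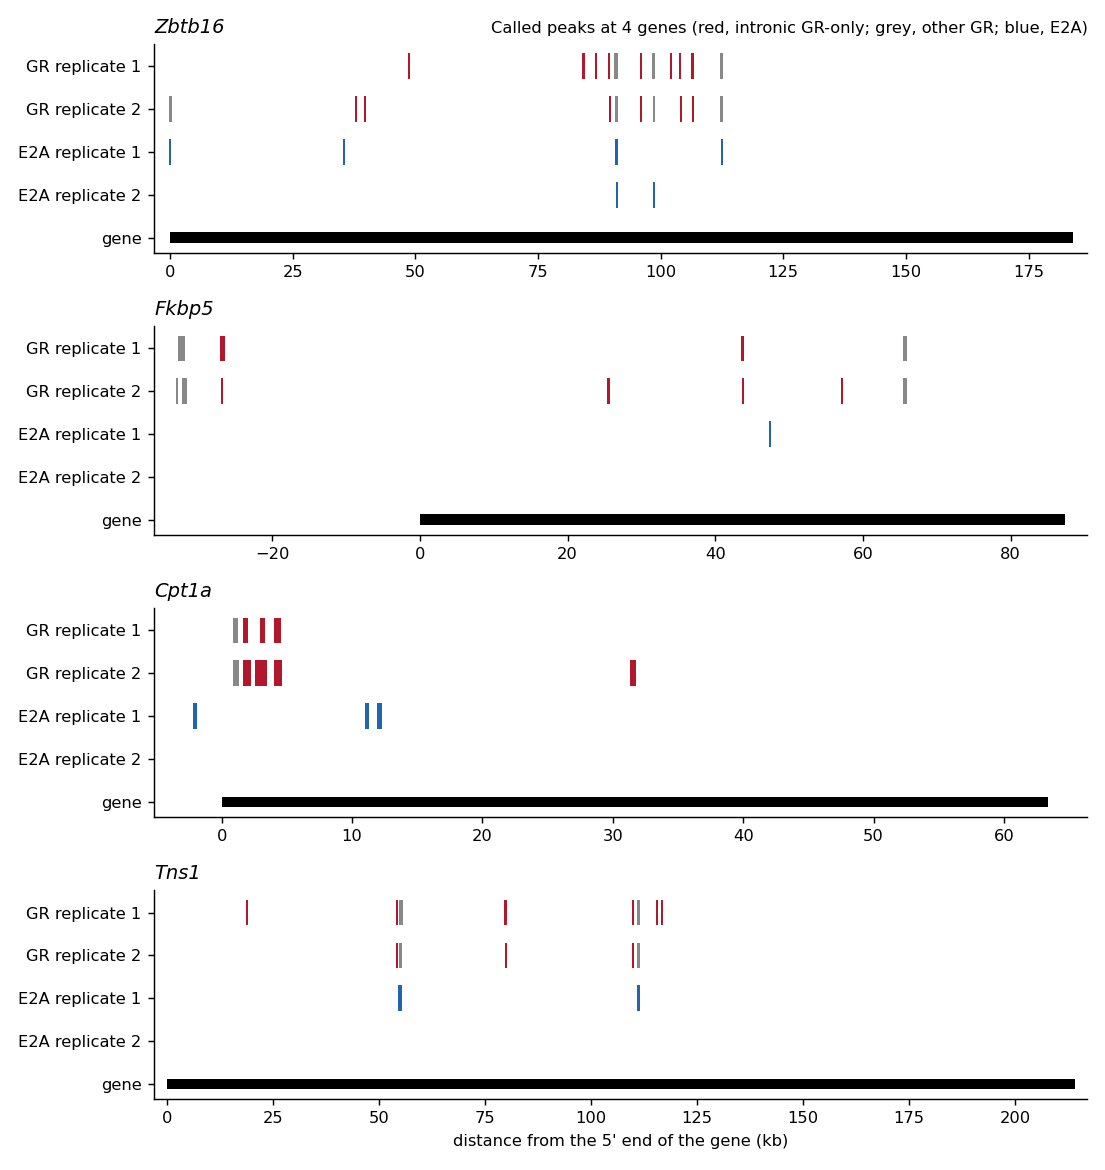
Called peaks of each of the 4 samples (rows) at Zbtb16, Fkbp5, Cpt1a and Tns1 against the distance from the 5′ end of the RefSeq gene (x axis, kb), with peaks of intronic GR-only regions in red, other GR peaks in grey, E2A peaks in blue and the gene as a black bar. All 10 Zbtb16 regions lie inside the gene, the most distal of the 4 of Cpt1a appears in GR replicate 2 only, 3 of the 6 of Tns1 appear in GR replicate 1 only, and 1 of the 4 of Fkbp5 lies upstream of the RefSeq gene, in intron 1 of a longer transcript used by the deposited annotation.

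The map of called peaks at these 4 genes shows that intronic GR-only regions lay both beside and far from E2A peaks. Besides Zbtb16, the genes with the most regions were Tns1 and Cmah, which encodes an enzyme of sialic acid synthesis, with 6 each, Mad1l1 (a mitotic checkpoint protein) and Mtss1 (an actin regulator) with 5 each, and Aacs (acetoacetyl-CoA synthetase), Abcg8 (a sterol exporter), Aox3 (an aldehyde oxidase) and Ass1 (argininosuccinate synthase of the urea cycle) with 4 each, the last 4 taken by symbol from a larger group with 4. They differed in replicate support. Of the 6 regions of Tns1, 3 were called in both replicates and 3 in replicate 1 alone, whereas of the 6 of Cmah 1 was called in both and 4 in replicate 2 alone. The 4 of Aox3 were all of replicate 2, and 4 of the 5 of Mad1l1 were of replicate 1.

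The remaining gene of this group, Mir6388, had 7 regions, all of replicate 1 only. They lay on chromosome 12 between 115601986 and 115822617, within the span of the immunoglobulin heavy chain genes (113254830 to 116010093), in introns of a transcript annotated with 1148 introns, 53.8 to 126 kb from the microRNA gene. That locus consists of many similar gene copies, among which short reads can be hard to place. Per the methods, reads had been filtered for uniquely mapped pairs, and the part of read placement in these regions was not tested. The assignment to Mir6388 reflects distance alone. None of the 7 had a GRE.

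Among 22 immediate glucocorticoid targets, 18 were nearest to a GR region and 7 of those (38.9%) to an intronic GR-only region, against 17.8% of all genes nearest to a GR region. The 18 genes had a median length of 6815 bp, but Zbtb16 with 10 regions and Fkbp5 with 4 were 181926 and 118772 bp long. The list was picked with results of these data known, so the comparison is a description. Beside Zbtb16 and Fkbp5 the 7 genes were Klf9 with 3, Angptl4, Bcl6 and Tsc22d3 with 2 each and Cdkn1a with 1, the last 3 named after their values were seen. Klf9 encodes a Krüppel-like repressor, and all 3 of its regions were of replicate 2, whereas 5 of its 10 GR regions were shared with E2A. Tsc22d3 encodes GILZ, an anti-inflammatory mediator of glucocorticoids, and both of its regions, 0.984 and 24.6 kb from the TSS, were called in both replicates and had no GRE in the centre. Over the 24 regions of this list 10 were called in both replicates and 2 had a GRE. A GR region shared with E2A was found for 11 of the 18 genes.

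Lipid genes often had intronic GR-only regions, and many also had a GR region shared with E2A. Such a shared region was found for 11 of 19 genes with a GR region in the synthesis list. In the oxidation list it was 3 of 9 and in the cholesterol list 14 of 23. No background stands beside these shared counts. Of the 20 genes of fatty acid and triglyceride synthesis, 19 were nearest to a GR region and 11 (57.9%) to a member, among them Acly (ATP citrate lyase), Dgat2 (a triglyceride-forming acyltransferase), Elovl5 and Elovl6 (fatty acid elongases) with 2 regions each. Both of Dgat2 were called in both replicates. Of 16 genes of fatty acid oxidation and fasting, 9 had a GR region and 5 (55.6%) a member. Of 25 genes of cholesterol, bile acid and lipoprotein metabolism, 23 had a GR region and 10 (43.5%) a member, including Abcg8 with 4, the lipoprotein component Apoa1 with 3, and the sterol exporter Abca1 and the bile acid enzyme Cyp7b1 with 2 each. These shares stood above the background of 17.8%, but the genes were picked with results of these data known and the median lengths of the list genes with a GR region were 48493, 30308 and 25244 bp against 20565 bp for all such genes, so the comparison is a description.

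For 18 of 20 genes of amino acid catabolism and the urea cycle a GR region was found, and 9 of the 18 had a member, against a background of 17.8%. Ass1 had 4, Asl (argininosuccinate lyase) and Tdo2 (tryptophan dioxygenase) 3 each, and Aass, the first enzyme of lysine breakdown, 2. All 3 regions of Tdo2 were of replicate 2. A GR region shared with E2A was found for 12 of the 18 genes. Of 19 genes of glucose production and glycogen metabolism all had a GR region and 6 (31.6%) a member, also above that background. The median gene lengths were 26844 bp for the first list and 23530 bp for the second. Pcx (pyruvate carboxylase) and Pklr (liver pyruvate kinase) had 3 each and the glucose transporter gene Slc2a2 had 2. The 3 of Pklr were all of replicate 2, and 14 of the 19 genes had a GR region shared with E2A.

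Signalling and transcription factor genes were also represented. In insulin, IGF and FoxO signalling, 8 of 13 genes with a GR region (61.5%) had a member, the highest share of the 12 lists and above the background of 17.8%. These 13 genes were long, with a median of 68584 bp, and 10 of them had a GR region shared with E2A. Foxo3, a forkhead factor restrained by insulin, had 3 regions in intron 2, all called in both replicates, and the one at chr10:42230879-42231371 had a GRE with 2 mismatches. Irs1, an insulin receptor substrate, also had 3, and the forkhead gene Foxo1 and the adaptor gene Grb10 had 1 each. In growth hormone, STAT and cytokine signalling 8 of 18 (44.4%, median length 65566 bp) had a member and 11 a region shared with E2A. Lifr (leukemia inhibitory factor receptor) had 4, Egfr and Il6ra 2 each and the growth hormone receptor gene Ghr 1. Both regions of Il6ra, at 2.73 and 7.49 kb, had a GRE. Of hepatocyte transcription factors 8 of 15 (53.3%, median length 27727 bp) had a member, with Nr1i2, the xenobiotic receptor PXR, at 4 and Foxa3, Nr1h4 (the bile acid receptor FXR) and Rxra (their partner) at 2. Nr1i2 also had 3 regions shared with E2A, and Rxra had 6. Of the 15 hepatocyte factor genes, 11 had such a shared region.

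Clock genes, GR cofactors and the family of E2A itself had the lowest shares of the 12 lists. Each stood above the background of 17.8%, but on 3 or 4 genes, and the difference was not tested. The median lengths of their genes with a GR region were 30423, 81786 and 8237 bp, against 20565 bp for all such genes. In the circadian clock list 4 of 15 genes with a GR region (26.7%) had a member, namely Hlf, Per2 and Rora with 2 each and Dbp with 1. Among the receptor, its coregulators and chaperones it was 4 of 14 (28.6%), among them the coactivators Ppargc1a and Ppargc1b with 2 each and the corepressor Ncor1 with 1. Among E proteins, Id and other bHLH genes it was 3 of 12 (25%), Epas1, Tcf4 and Usf2 with 1 each. None of the 3 had a GRE in the centre. A GR region shared with E2A was found for 10 of the 15 clock genes, 7 of the 14 cofactor genes and 8 of the 12 bHLH genes. The bar chart of gene lists orders all 12.

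**Figure D5:**
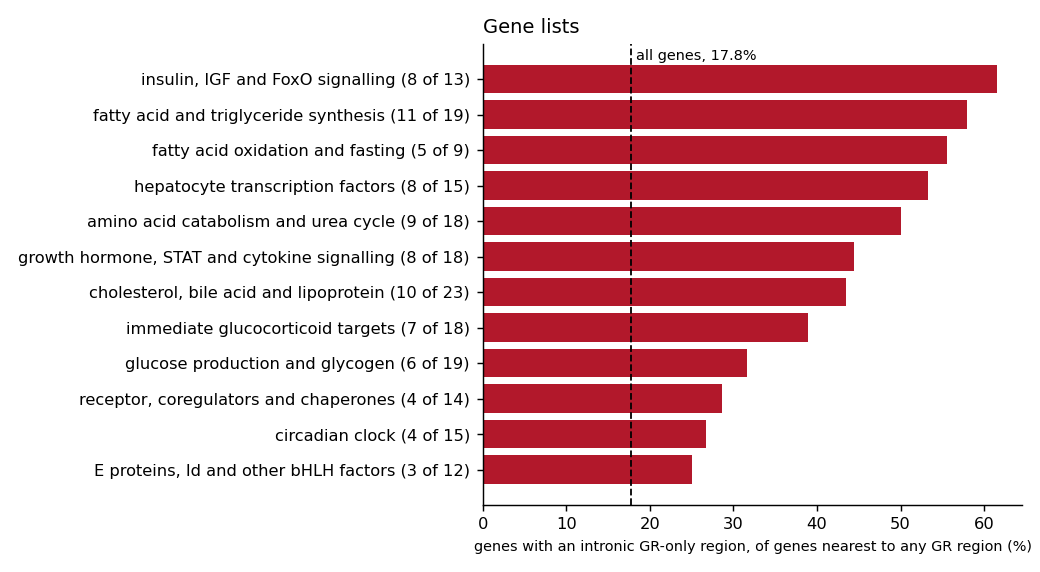
Share of genes with an intronic GR-only region among those genes of each list that are nearest to any merged GR region (x axis, %; counts in the labels). The dashed line marks 17.8% for all genes nearest to a GR region, and the lists range from 25% to 61.5%.

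Marker genes of liver cell types were checked in the same way. Of 12 hepatocyte markers 11 had a GR region and 6 (54.5%) a member, against 17.8% over all genes with a GR region. Among the 6 were Apoa1 and Serpina1a with 3 each. All 11 also had a GR region shared with E2A, and their median length was 9369 bp. Of the 11 intronic GR-only regions of these markers, 2 were called in both replicates. Of 8 Kupffer cell markers 1 had a GR region and 0 a member, of 7 cholangiocyte markers 1 and 0, and of 8 stellate cell markers 0 had a GR region. Of 8 endothelial markers 4 had a GR region and all 4 had a member, and of 8 lymphocyte markers 2 had a GR region and 1 (Cd4) a member. The genes named here were singled out after their values were seen. The endothelial genes, of a median length of 53170 bp, were Lyve1, Pecam1, Stab2 and Vwf with 1 region each, of which those of Lyve1, Pecam1 and Stab2 were called in both replicates and that of Vwf in replicate 1. The region assigned to Lyve1 lay in an intron of Mrvi1. The contribution of endothelial cells to these regions was not tested.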

How the data were processed

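Peaks were analysed as the authors deposited them, 1 annotated table per sample with start, end, width and distance to the TSS in bp (1-based, mm10) and the nearest gene. Per the labels reads were processed with BWA 0.7.13, Picard 1.119 and MACS2 2.1.0, while the methods name later Picard and MACS2 releases. The control, the calling threshold and the annotation tool are not given in the sources used here. Replicate numbers follow the sample titles, which for GR are opposite to those in the file names.

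Peaks sharing 1 bp were merged with Python 3.11.15 and pandas 2.3.3. Sequence was read from GRCm38.p6, whose primary chromosomes are those of mm10. Motifs were searched on both strands in the central 200 bp, and in flanking windows of 200 bp that began 500 bp outside each region. DR1 and the GRE allowed 2 mismatches. Two-sided Fisher's exact tests (scipy 1.17.1) were adjusted by Benjamini-Hochberg over all 33 tests, with 0.05 as the threshold, and shares carry 95% Wilson intervals that cover counting error over regions only. The scan was tested on simulated windows. Exons and introns came from GENCODE M21, and host gene symbols and gene ends in the maps from RefSeq.

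Named are regions of both replicates with a perfect GRE, the 10 genes with the most regions (ties by symbol) and up to 4 genes per list, of which some are not reported here. Members, lists and motifs were chosen with earlier results of these data known. Alternatives covered the window, the GRE definition, GC content, replicate support, same-numbered libraries, each left-out library, the distance to E2A and the width limit.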

Additional observations from a re-analysis of the deposited data

How the results depend on the processing

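For the GRE share against intronic regions with E2A, the odds ratio (main 1.98) was 1.32 over whole regions, 1.44 in 400 bp and 4.67 for 0 mismatches, none past the threshold, and 1.65 to 2.11 when 1 library was left out. It passed within GC bins (1.95), with at most 1 mismatch (3.66), in both replicates (2.46), with no E2A within 500 bp (2.15), under 500 bp (2.12) and, chosen after seeing the data, within replicate classes (2.56). Against intergenic regions (main 0.925) it turned to 1.04 for 0 mismatches, 1.06 in both replicates, 1.04 under 500 bp and 1.01 with the replicate block, never past the threshold, and ranged from 0.940 to 0.986 with 1 library left out. Against promoters (main 10.8) it was 5.51 for 0 mismatches, not past the threshold, and 4.99 to 13.4 with 1 library left out. The cause of these changes was not tested. For 0 mismatches 0.5 was added to each cell where a count was 0.

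Motifs that differed from intronic regions with E2A numbered 1 in 400 bp (C/EBP), 4 over whole regions (C/EBP, FOX, HNF6 and the cyclic AMP response element, without the GRE and the half-site) and 0 to 2 with 1 library left out. Those that differed from intergenic regions numbered 2 over whole regions (STAT5 and the half-site), 0 in both replicates and 0 to 1 with 1 library left out. There were 339 members called in both replicates and 881 to 1728 with 1 library left out. Their share in intron 1 stayed between 44.2% and 46.7%. Their GRE share was 13.2% over whole regions, 12.7% in 400 bp, 2.44% with at most 1 mismatch, 0.359% with 0, 30.2% with the core GRE, 18% in both replicates and 9.09% to 12.5% with 1 library left out.

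GR and E2A libraries share replicate numbers, and nothing in the labels ties a number to an animal. In a replicate block chosen after seeing the data, the peaks of GR replicate 1 were set against those of E2A replicate 1 alone and likewise for replicate 2. The GRE odds ratio against intronic regions with E2A was 2.05 and 1.73 in these pairs and 1.93 over both (Mantel-Haenszel), and 3 motifs differed, again the GRE, the half-site and C/EBP. A region called in both replicates enters this block in each pair. Whether same-numbered libraries deviate together was not tested.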
